A study of Mus musculus with 24 samples.

Results

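Myc and 42 rows of ribosome biogenesis were followed in activated mouse CD8+ T cells: the Rn45s row, which stands for the rRNA precursor, and 41 genes of RNA polymerase I, the nucleolus, pre-rRNA processing and polyamine synthesis. They were chosen by name from textbook roles, with earlier results of these data known. All 43 were found among the 23366 rows of the deposited tables and passed the filter on low counts. RNA was sequenced from 24 libraries in 8 groups of 3, each made from 1000 sorted C57BL/6 cells. At day 3 the groups were cKO cells (E8i-Cre+Nr3c1fl/fl) with 10 nM dexamethasone (Dex), a synthetic glucocorticoid, cKO cells without it (Ctrl), WT cells (E8i-Cre-Nr3c1fl/fl) with 10 nM Dex, and WT cells without it. At day 9 they were WT cells with Dex at 10 nM and the cytokine IL27 at 25 ng/ml (Dex+IL27), with Dex alone, with IL27 alone, and without either (Ctrl). All 8 groups began as sorted naive cells that were stimulated through CD3 and CD28 by plate-bound antibodies, each at 1 µg/ml. The day 9 groups were then rested for 3 days in IL2 at 5 ng/ml and stimulated again for 3 days. The floxed Nr3c1 allele, which encodes the glucocorticoid receptor, was carried by the WT groups too, and E8i drives Cre from a Cd8a enhancer in the CD8 lineage. Whether replicate libraries stem from different mice or culture wells is not in the labels, and p-values therefore reflect no more than the library-to-library spread.

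Myc is a transcription factor that pairs with Max, binds E-box sequences and is induced when T cells are activated, where it is known to drive growth and metabolic genes. Ribosome biogenesis begins in the nucleolus, where RNA polymerase I copies the rRNA precursor. Small nucleolar RNA-protein particles then modify that precursor, and separate sets of factors cut and fold it into the small and the large ribosomal subunit. Many genes of this pathway are known Myc targets.

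Library totals of estimated counts ran between 14221883 and 19018440. Levels are given as CPM, counts scaled to a common library size with TMM factors, which correct for composition. A gene passed the test at a Benjamini-Hochberg adjusted p under 0.05 in edgeR's quasi-likelihood test over all genes, two-sided, and changes are log2 fold changes ± SE with 3 libraries per group. Nr3c1 stood at 5.32 to 8.18 CPM in cKO Dex and 7.10 to 8.20 CPM in cKO Ctrl libraries, against 19.2 to 21.4 CPM in WT Dex and 14.9 to 18.3 CPM in WT Ctrl libraries of day 3. The 5 CD8 T cell markers summed to at least 1158 CPM in every library, and lists of other cell types were lower. The 5 B cell markers summed to at most 20.9 CPM in any library, with Pax5 at 0 in all 8 groups, and the 5 erythroid and platelet markers to at most 5.06 CPM (a Dex library of day 9), with Pf4 and Ppbp at 0. Some libraries stood apart from their group. The chi-square per degree of freedom between replicates was 26.8 and 16 for IL27 replicate 1 with its partners, against 6.79 between those partners. It was 14.2 and 10.6 for cKO Dex replicate 6, against 4.42, and 9.7 and 13 for Dex+IL27 replicate 2, against 6.78. RNA was measured per library, so fewer cells of a type and less RNA per cell cannot be told apart.

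Myc was among the more abundant of the 43 rows per unit length. Its group means ran between 119 and 271 FPKM, below Npm1 (2476 to 2852 FPKM) and in the range of the snoRNP proteins Nhp2 (86.6 to 281 FPKM) and Nop56 (55.5 to 276 FPKM). The rows lowest per unit length were Utp20 (1.11 to 3.83 FPKM), Heatr1 (2.49 to 7.33 FPKM) and Gar1 (2.64 to 8.02 FPKM). Rn45s stood far above all others at 15486 to 28898 FPKM.

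At day 3 the Myc level lay in one narrow band in all 4 groups. It was 496, 448 and 472 CPM in cKO Dex, 473, 512 and 498 CPM in cKO Ctrl, 524, 479.9 and 515 CPM in WT Dex, and 457, 497 and 478 CPM in WT Ctrl libraries. These groups overlapped, and Myc passed none of the 5 tests among them. At day 9 Myc was 336, 257 and 281 CPM with Dex+IL27, 390.2, 383 and 378 CPM with Dex and 406, 556 and 510.2 CPM with IL27, against 627, 628 and 663 CPM in Ctrl. The Ctrl libraries were the highest of that day, the Dex+IL27 libraries were the lowest, and the Dex and IL27 libraries lay between them without overlapping each other. Ordered by group mean, the level was 291 ± 40.7 CPM with Dex+IL27, 384 ± 5.90 with Dex, 491 ± 77.0 with IL27 and 639 ± 20.7 in Ctrl (SD, n = 3 each). The change of Myc against Ctrl was -1.15 ± 0.11 with Dex+IL27, -0.76 ± 0.11 with Dex and -0.42 ± 0.10 with IL27, with edgeR adjusted p of 1.84e-07, 2.12e-05 and 0.00304. The neighbours Dex+IL27 and Dex differed by -0.38 ± 0.11 (edgeR adjusted p = 0.0121, and 0.0553 without Dex+IL27 replicate 2), while the difference between Dex and IL27 was not tested.

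The Rn45s row moved the other way at day 9. It took 15.8%, 16.4% and 16.0% of all counts with Dex+IL27, 14.6%, 14.1% and 15.0% with Dex and 14.5%, 13.8% and 14.0% with IL27, against 8.95%, 9.13% and 9.25% in Ctrl. No treated library overlapped a Ctrl library, and the change was 0.94 ± 0.04, 0.73 ± 0.04 and 0.69 ± 0.04 in the same order, with edgeR adjusted p of 1.63e-10, 4.05e-09 and 6.48e-09. At day 3 the row held 11.6% to 13.2% in cKO Dex, 12.5% to 13.0% in cKO Ctrl, 11.9% to 12.7% in WT Dex and 10.5% to 11.5% in WT Ctrl libraries. The row holds the sequence of the mature rRNAs as well as the precursor, and these RNAs lack the poly(A) tails that SMART-Seq2 primes on, so it counts the rRNA the libraries captured and not a rate of synthesis. How much rRNA was carried into each library was not measured separately, and its part in this result was not tested.

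**Figure D1:**
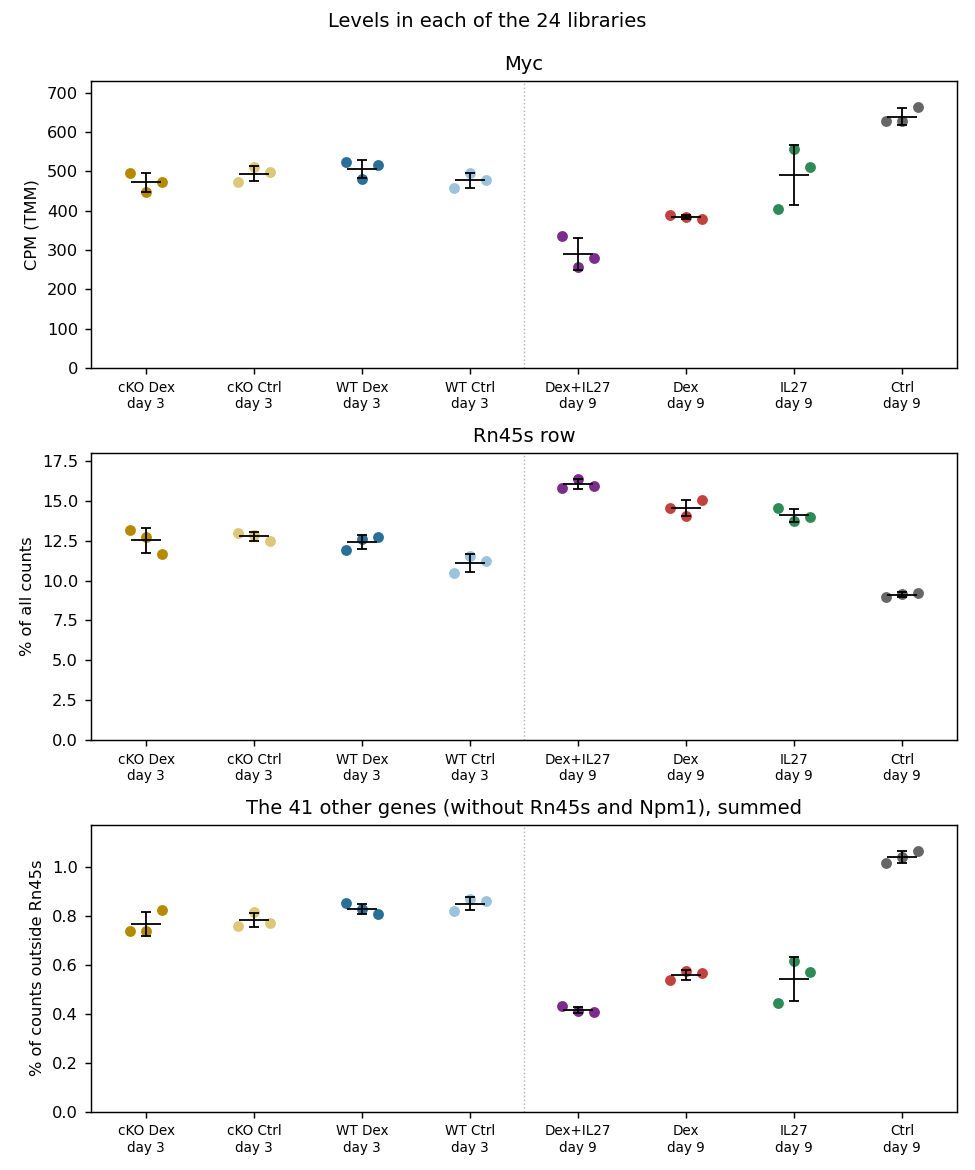
Myc in CPM, the Rn45s row as a percentage of all counts, and the summed counts of the 41 genes other than Rn45s and Npm1 as a percentage of counts outside Rn45s, for each of the 24 libraries. Dots are libraries and bars are the mean ± SD of 3. At day 9 the Ctrl libraries have the highest Myc and the lowest Rn45s share of the 4 groups.

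Summed over Myc and the 40 other genes that are neither Rn45s nor Npm1, the listed genes took 0.431%, 0.412% and 0.408% of the counts outside Rn45s with Dex+IL27. The sum was 0.536%, 0.574% and 0.564% with Dex and 0.443%, 0.613% and 0.571% with IL27, against 1.02%, 1.04% and 1.07% in day 9 Ctrl. Every treated library of day 9 was thus below every Ctrl library. IL27 replicate 1 was the lowest IL27 library for this sum and for Myc.

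Dex at day 9 lowered nearly the whole list. Of the 43 rows, 39 fell, 1 rose (Rn45s) and 3 did not pass (Npm1, Polr1c and Rrp1b). Among all 12320 genes tested 55.6% passed and 27.4% fell. The median change was -0.91 over the 43 rows and 0.03 over all genes, and 17 rows fell at least 2-fold. How many of all genes fell as far was not counted. The 4 largest falls were Nolc1 (-1.57 ± 0.16), Imp4 (-1.49 ± 0.11), Rrp9 (-1.38 ± 0.15) and Mybbp1a (-1.37 ± 0.14), with edgeR adjusted p between 6.38e-08 and 2.26e-06. All falls but that of Fbl were called under each of the 17 alternatives.

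With IL27 alone, 38 of the 43 rows fell, Rn45s rose, and Npm1, Polr1c, Fbl and Imp3 did not pass, beside 57.4% of all genes that passed and 28.1% that fell. The median change was -0.96 over the list and 0.03 over all genes. By a count made over the list alone, 20 rows fell at least 2-fold. The largest falls were Nolc1 (-1.65 ± 0.16), Nop56 (-1.63 ± 0.11), Imp4 (-1.59 ± 0.11) and Dkc1 (-1.52 ± 0.13), with edgeR adjusted p between 3.95e-08 and 6.37e-07. Without IL27 replicate 1 the count of rows called was again 39, and the change of Myc was -0.30 with an edgeR adjusted p of 0.00941.

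With both agents the falls were deeper. Against Ctrl 40 rows fell, Rn45s rose, and Npm1 and Polr1c did not pass, beside 66.9% of all genes that passed and 32.6% that fell. The median was -1.30 over the list and 0.05 over all genes. Again counted over the list alone, 32 rows fell at least 2-fold. Nolc1 (-2.32 ± 0.16), Nop56 (-2.28 ± 0.12), Rrp9 (-2.26 ± 0.16) and Mybbp1a (-2.17 ± 0.14) fell most, with edgeR adjusted p between 7.31e-10 and 1.14e-08. The comparisons with Ctrl share the 3 Ctrl libraries. Set against Dex alone, Dex+IL27 lowered 29 rows further and raised Rn45s (0.21 ± 0.04), where 32% of all genes passed and 17.1% fell. Nop56 (-0.93 ± 0.11), Rrp9 (-0.89 ± 0.16), Nop58 (-0.81 ± 0.13) and Srm (-0.80 ± 0.24) fell most in that comparison. Set against IL27 alone, 26 rows fell and Rn45s rose (0.25 ± 0.04), where 26.1% of all genes passed and 14.3% fell. Srm (-1.07 ± 0.24), Bysl (-0.94 ± 0.14), Rrp9 (-0.88 ± 0.15) and Rrp12 (-0.74 ± 0.13) fell most there. Leaving out IL27 replicate 1 gave 36 rows called, and leaving out IL27 replicate 2 or 3 gave 19, against 27 with all libraries. Calls over all genes moved the same way, from 3212 to 3964, 2201 and 2161 in that order.

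**Figure D2:**
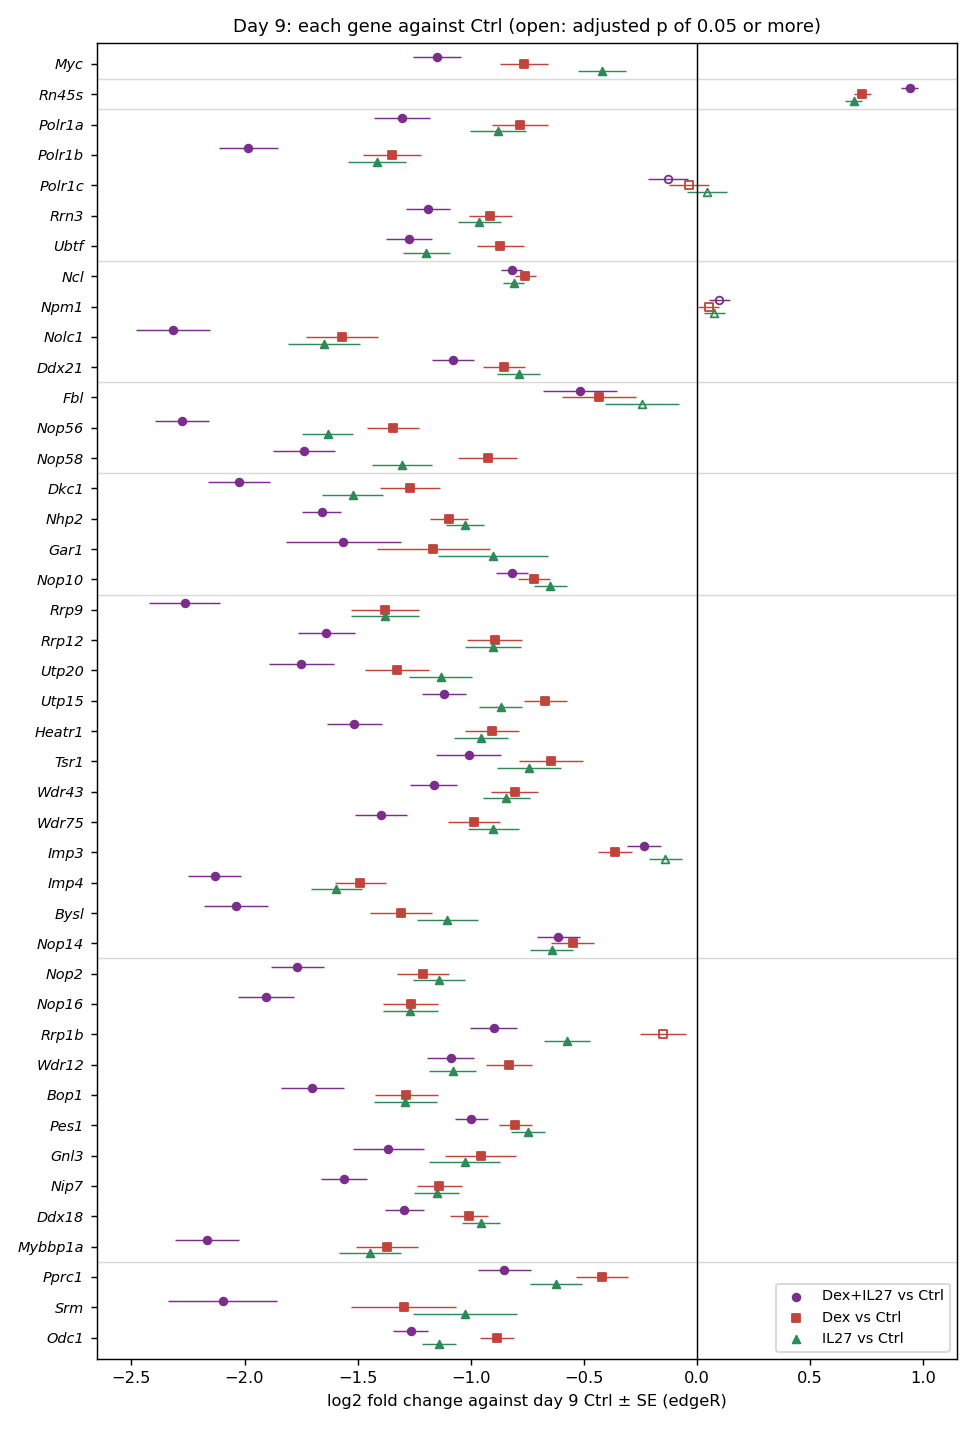
Log2 fold change ± SE of each of the 43 rows against day 9 Ctrl with Dex+IL27 (circles), Dex (squares) and IL27 (triangles), in the order of their roles. Filled symbols passed the test. Rn45s alone lies clearly to the right of 0, and Polr1c and Npm1 have open symbols in all 3 comparisons.

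RNA polymerase I was represented by its subunits Polr1a, Polr1b and Polr1c and the initiation factors Rrn3 and Ubtf. All but Polr1c fell in each of the 3 comparisons with Ctrl. Polr1b, the second largest subunit, had 34.4, 34.1 and 31.6 CPM with Dex+IL27, 51.9, 48.9 and 56.5 CPM with Dex and 37.1, 57.2 and 56.7 CPM with IL27, against 125, 127 and 139.6 CPM in Ctrl. All 9 treated libraries lay below all 3 Ctrl libraries, and the change with Dex was -1.35 ± 0.13 (edgeR adjusted p = 5.8e-07). Polr1c, a subunit that RNA polymerase III also uses, had 112, 111 and 105 CPM with Dex+IL27, 111, 118 and 126 CPM with Dex and 107, 140.4 and 130.4 CPM with IL27, against 116, 121 and 120.4 CPM in Ctrl. Its change with Dex was -0.04 ± 0.09 (edgeR adjusted p = 0.742), and the Dex and IL27 libraries overlapped Ctrl.

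Of the nucleolar scaffold and helicase genes, nucleolin (Ncl), the snoRNP chaperone Nolc1 and the helicase Ddx21 fell in all 3 comparisons with Ctrl. Nolc1 had 62.4, 59.2 and 53.8 CPM with Dex+IL27, 89.7, 97.8 and 111 CPM with Dex and 62.5, 114 and 107 CPM with IL27, against 278, 299 and 289 CPM in Ctrl. The Ctrl libraries were far above the rest. Ncl showed no such step between single and combined treatment, with 857, 919 and 864 CPM with Dex+IL27, 913, 930.0 and 939 CPM with Dex and 878, 905 and 919 CPM with IL27, against 1488, 1555 and 1574 CPM in Ctrl. Npm1, the nucleolar chaperone nucleophosmin, had 3581, 3994 and 3529 CPM with Dex+IL27, 3535, 3562 and 3770.4 CPM with Dex and 3704, 3673 and 3757 CPM with IL27, against 3425, 3416 and 3442 CPM in Ctrl. The treated libraries were all above Ctrl, but the change of 0.05 ± 0.05 with Dex did not pass (edgeR adjusted p = 0.369). Npm1 has many processed pseudogenes in the mouse genome, and how the counting shared reads among them is not given in the sources used here.

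Box C/D particles, which methylate rRNA, were represented by the methyltransferase Fbl and the core proteins Nop56 and Nop58. Nop56 had 113, 101 and 109 CPM with Dex+IL27, 191, 218 and 213 CPM with Dex and 130.2, 192 and 189 CPM with IL27, against 509, 518 and 520.1 CPM in Ctrl. Its change was -1.34 ± 0.11 with Dex, and the groups with Dex+IL27 and with Dex did not overlap. Fbl had 35.6, 37.2 and 31.0 CPM with Dex+IL27, 38.2, 38.1 and 34.9 CPM with Dex and 33.1, 49.9 and 44.7 CPM with IL27, against 36.9, 49.6 and 60.6 CPM in Ctrl. The Ctrl libraries of Fbl spread widely and overlapped each treated group, and its fall of 0.43 on the log2 scale with Dex (edgeR adjusted p = 0.0357) was lost without Ctrl replicate 2 (edgeR adjusted p = 0.0700), without Ctrl replicate 3 (adjusted p = 0.206) and without any 1 Dex library.

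Box H/ACA particles convert uridines of rRNA to pseudouridine. Their 4 proteins, the pseudouridine synthase Dkc1 and its partners Nhp2, Gar1 and Nop10, all fell with Dex+IL27, with Dex and with IL27. Dkc1 had 84.4, 79.4 and 95.4 CPM with Dex+IL27, 143, 148 and 152 CPM with Dex and 90.7, 153 and 130.2 CPM with IL27, against 337, 359 and 350.1 CPM in Ctrl. Nop10, the smallest change of the 4 with Dex, had 97.2, 104 and 96.2 CPM with Dex+IL27, 106, 107 and 108 CPM with Dex and 101, 124 and 115 CPM with IL27, against 176, 174 and 169 CPM in Ctrl. Both genes separated every treated library from Ctrl, with changes of -1.27 ± 0.13 (Dkc1) and -0.72 ± 0.07 (Nop10) for Dex.

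All 12 genes of small subunit processing fell with Dex and with Dex+IL27, and 11 fell with IL27. The list holds factors of the processome that assembles on the precursor, among them Utp15, Utp20, Heatr1, Wdr43, Wdr75, Imp3 and Imp4. Imp4, a protein that joins the U3 snoRNA to the precursor, had 34.4, 25.7 and 29.4 CPM with Dex+IL27, 44.6, 47.6 and 49.1 CPM with Dex and 37.3, 47.9 and 47.0 CPM with IL27, against 139, 124 and 127 CPM in Ctrl. Its partner Imp3 had 60.7, 63.7 and 59.4 CPM with Dex+IL27, 52.0, 58.6 and 59.3 CPM with Dex and 62.7, 68.5 and 68.5 CPM with IL27, against 72.3, 69.2 and 72.7 CPM in Ctrl. The changes with Dex were -1.49 ± 0.11 for Imp4 and -0.36 ± 0.07 for Imp3, with edgeR adjusted p of 6.38e-08 and 0.000711.

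Of the 10 genes of large subunit processing 9 fell with Dex and 10 with IL27 and with Dex+IL27. They include the rRNA methyltransferase Nop2, the helicase Ddx18, and Pes1, Bop1 and Wdr12, which form one complex. Mybbp1a, a nucleolar protein that binds transcription factors, had 124, 103 and 109.6 CPM with Dex+IL27, 186, 208 and 197 CPM with Dex and 135, 224 and 206 CPM with IL27, against 479, 493 and 527 CPM in Ctrl. Rrp1b had 65.9, 84.8 and 69.5 CPM with Dex+IL27, 121, 130.4 and 122 CPM with Dex and 77.4, 103 and 100.0 CPM with IL27, against 136, 134 and 136 CPM in Ctrl. Rrp1b changed by -0.15 ± 0.10 with Dex (edgeR adjusted p = 0.231), while it fell by 0.58 on the log2 scale with IL27 (edgeR adjusted p = 0.000233) and by 0.90 with Dex+IL27 (edgeR adjusted p = 2.13e-06). The difference between its Dex and IL27 changes was not tested.

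Pprc1, a growth-regulated transcription coactivator, and the polyamine enzymes Odc1 and Srm fell in all 3 comparisons with Ctrl. Spermidine synthase, Srm, had 29.8, 33.8 and 21.8 CPM with Dex+IL27, 44.9, 55.2 and 49.7 CPM with Dex and 36.5, 74.9 and 70.6 CPM with IL27, against 93.2, 116 and 152 CPM in Ctrl. Its libraries spread more within groups than those of Odc1, and its change of -1.30 ± 0.23 with Dex had an edgeR adjusted p of 0.000239. Pprc1 had 52.9, 57.7 and 43.9 CPM with Dex+IL27, 70.9, 69.5 and 70.0 CPM with Dex and 51.1, 69.0 and 64.2 CPM with IL27, against 82.5, 93.8 and 99.8 CPM in Ctrl. The treated libraries of both genes lay below Ctrl.

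**Figure D3:**
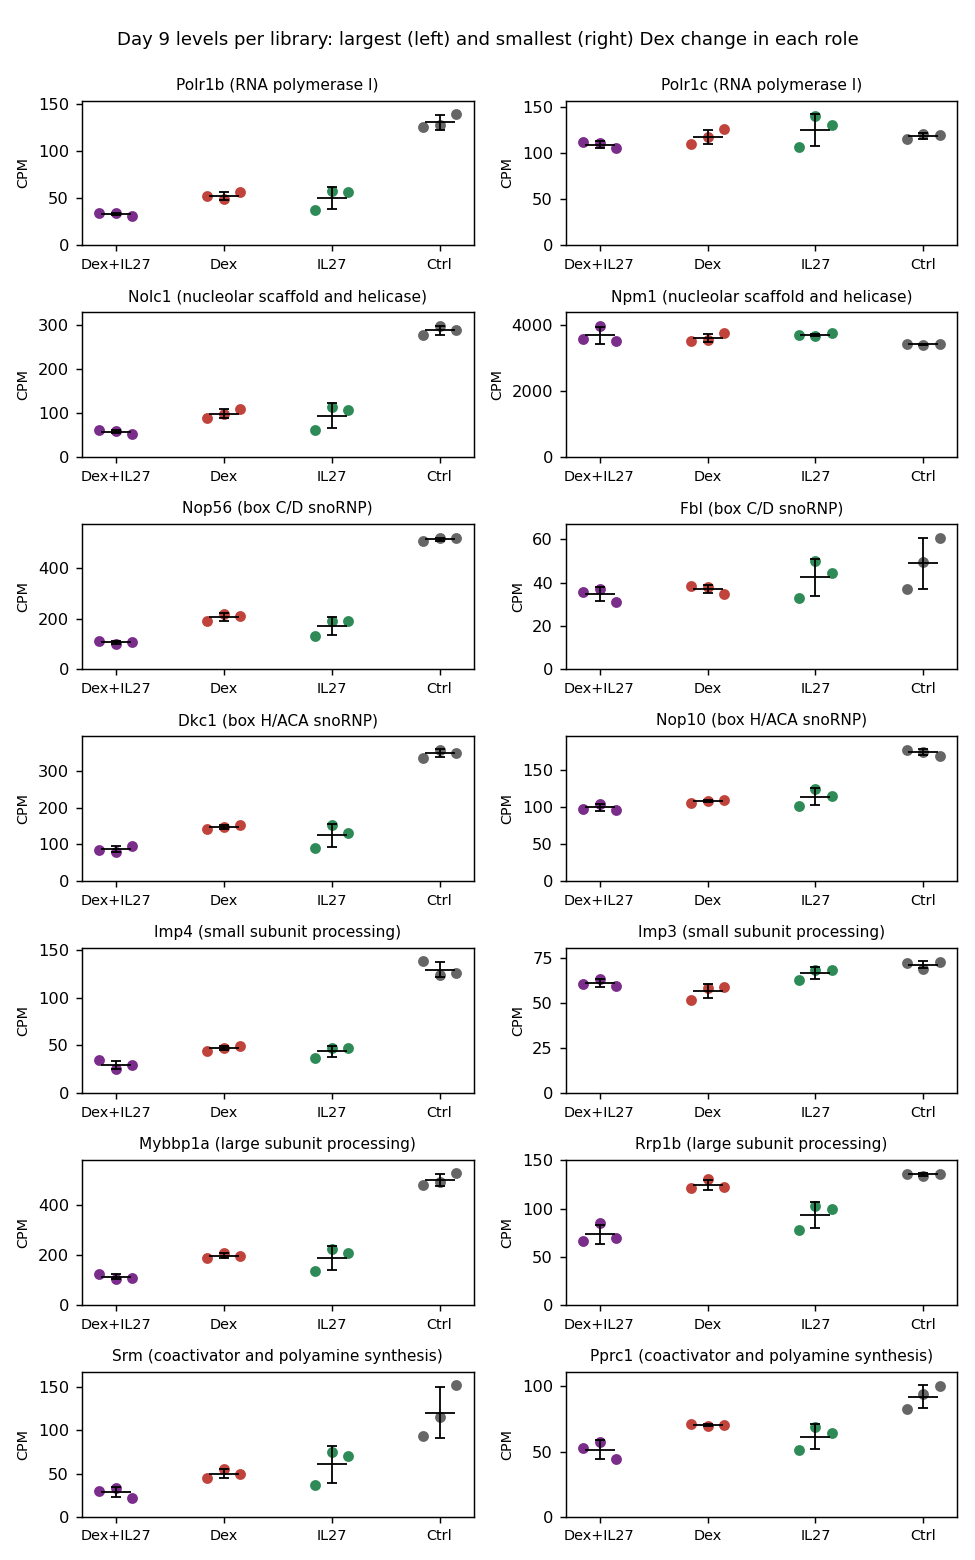
CPM in each day 9 library for the gene with the largest (left) and the smallest (right) change with Dex in each role. Dots are libraries and bars are the mean ± SD of 3. Every gene on the left is lower in all treated libraries than in Ctrl, while Polr1c and Npm1 on the right have similar levels in all 4 groups.

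Whether the agents add up was read from the Dex by IL27 interaction on the log2 scale, where a positive value means a combined change less negative than the sum of the single ones. The interaction was positive and passed for 26 of the 43 rows and was negative and passed for Rn45s, while 28.5% of all genes passed and 13.7% were positive. The median was 0.55 over the list and -0.02 over all genes. Over the list it was 0.40 without IL27 replicate 1, 0.66 without replicate 2 and 0.56 without replicate 3. Imp4 (0.95 ± 0.16), Nolc1 (0.90 ± 0.22), Bop1 (0.87 ± 0.19) and Wdr12 (0.82 ± 0.15) had the largest values, with edgeR adjusted p between 0.000601 and 0.00803. Ncl is a clear case, with an interaction of 0.75 ± 0.07 (edgeR adjusted p = 3.2e-06) that leaves the combined change of -0.82 close to the single changes of -0.76 and -0.81. Large subunit processing had 9 of 10 genes with a positive interaction that passed and small subunit processing 6 of 12. For Rn45s it was -0.48 ± 0.05 (edgeR adjusted p = 2.99e-05), so its rise with both agents was smaller than the sum of its single rises. Myc had an interaction of 0.04 ± 0.15 (edgeR adjusted p = 0.883), and Srm had 0.23 ± 0.33 (edgeR adjusted p = 0.652). A p that misses the threshold does not show that changes add up.

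**Figure D4:**
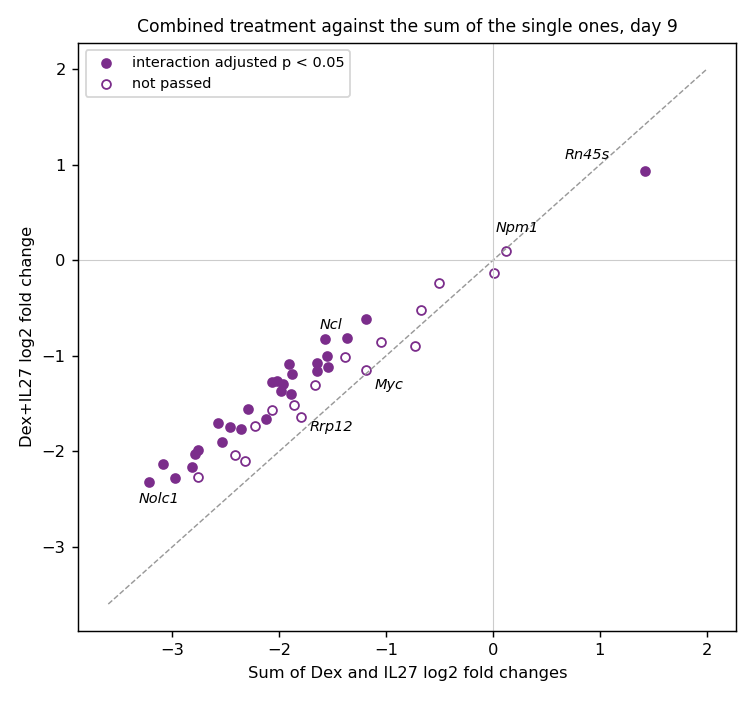
Log2 fold change against day 9 Ctrl with Dex+IL27 (vertical axis) and the sum of the changes with Dex and with IL27 (horizontal axis), 1 point per row. Filled points passed the interaction test and the dashed line marks equal values. Most falling genes lie above the line, Myc lies on it, and Rn45s lies below it.

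At day 3 the same dose of Dex left the list largely where it was. In cKO cells none of the 43 rows and 0% of all 11967 genes passed in edgeR or in DESeq2, with 1 row and 399 genes at an unadjusted p under 0.05. In WT cells 3 rows passed, beside 9.43% of all genes, and the median change was 0.00 over the list and 0.01 over all genes. Fbl rose by 0.49 ± 0.14 (edgeR adjusted p = 0.0341), Rn45s rose by 0.19 ± 0.05 (edgeR adjusted p = 0.0296) and Rrn3 fell by 0.26 on the log2 scale (SE 0.06, edgeR adjusted p = 0.0108). Rrn3 had 128, 132 and 125 CPM in WT Dex, against 148, 159 and 156 CPM in WT Ctrl libraries, which do not overlap. Fbl had 53.6, 56.5 and 55.4 CPM in WT Dex, against 29.6, 39.1 and 49.9 CPM in WT Ctrl libraries. These 3 calls did not all hold when a library was left out. Without WT Ctrl replicate 1, WT Ctrl replicate 2 or WT Dex replicate 2, 1 row passed, and 0 passed without WT Dex replicate 3. Calls over all genes dropped too, from 1129 to 813, 722, 791 and 691 in that order. Lower power with fewer libraries and reliance on 1 library thus cannot be told apart.

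The Dex effect in cKO cells minus that in WT cells passed for 0 of the 43 rows, beside 2.95% of all genes. In DESeq2 it passed for 0 rows and 560 genes. An unadjusted p under 0.05 in edgeR was seen for 6 rows and for 1878 of all 11967 genes. Between genotypes, Fbl (0.60 ± 0.14, edgeR adjusted p = 0.0308) and Rn45s (0.25 ± 0.05, edgeR adjusted p = 0.0225) were higher in cKO Ctrl than in WT Ctrl, where 2.36% of all genes passed. No row was called lower, yet 35 of the 43 had a negative change. The median was -0.11 over the list, against 0.0029 over all genes. An unadjusted p under 0.05 was seen for 18 rows and for 2049 of all 11967 genes. Rows called lower numbered 5 with DESeq2, 5 with library totals and 9 with no low-count filter. Calls over all genes were 540, 397 and 793 there, against 283 in the main fit. The 2 calls did not hold in every fit with a library left out either. Without WT Ctrl replicate 1 or cKO Ctrl replicate 4, 0 rows passed, and 1 passed without WT Ctrl replicate 2 or cKO Ctrl replicate 6. Calls over all genes dropped there as well, from 283 to 74, 88, 63 and 89 in that order. Without WT Ctrl replicate 3 there were 3 rows higher and none lower, and without cKO Ctrl replicate 5 there were 3 lower and none higher. In those fits calls over all genes numbered 364 and 177. Under Dex, 4 rows were lower in cKO than in WT cells, where 6.9% of all genes passed. Here too 35 rows had a negative change, with a median of -0.10 over the list, against -0.00019 over all genes. An unadjusted p under 0.05 was seen for 14 rows and for 2338 of all 11967 genes. The 4 called rows were Heatr1 (-0.36 ± 0.10), Utp15 (-0.30 ± 0.06), Dkc1 (-0.21 ± 0.06) and Odc1 (-0.19 ± 0.06), with edgeR adjusted p between 0.00467 and 0.0498. Utp15 had 82.5, 82.8 and 90.3 CPM in cKO Dex, against 100.3, 107 and 107 CPM in WT Dex libraries, which do not overlap, and it kept its call in every other setting. The count of 4 was 1 without WT Dex replicate 1 or cKO Dex replicate 5, 2 without WT Dex replicate 2 or cKO Dex replicate 4, and 15 without cKO Dex replicate 6. Calls over all genes went from 826 to 484, 497, 532, 534 and 1186 in that order.

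The Dex effect of day 9 minus that of day 3 was tested in WT cells in 1 fit of all 24 libraries. It was negative and passed for 39 of the 43 rows and positive for Rn45s (0.57 ± 0.07) and Npm1 (0.17 ± 0.06), while 39.6% of all genes passed and 19.2% were negative. Nolc1 (-1.55 ± 0.19), Srm (-1.55 ± 0.33), Imp4 (-1.49 ± 0.14) and Polr1b (-1.39 ± 0.17) had the largest negative values, with edgeR adjusted p between 2.29e-08 and 0.000535. For Myc the difference was -0.82 ± 0.12 (edgeR adjusted p = 9.23e-06). The call of Npm1 (edgeR adjusted p = 0.0277) was lost under other scalings, and Imp3, Nop14 and Pprc1 each lost theirs in at least 1 leave-one-out fit.

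**Figure D5:**
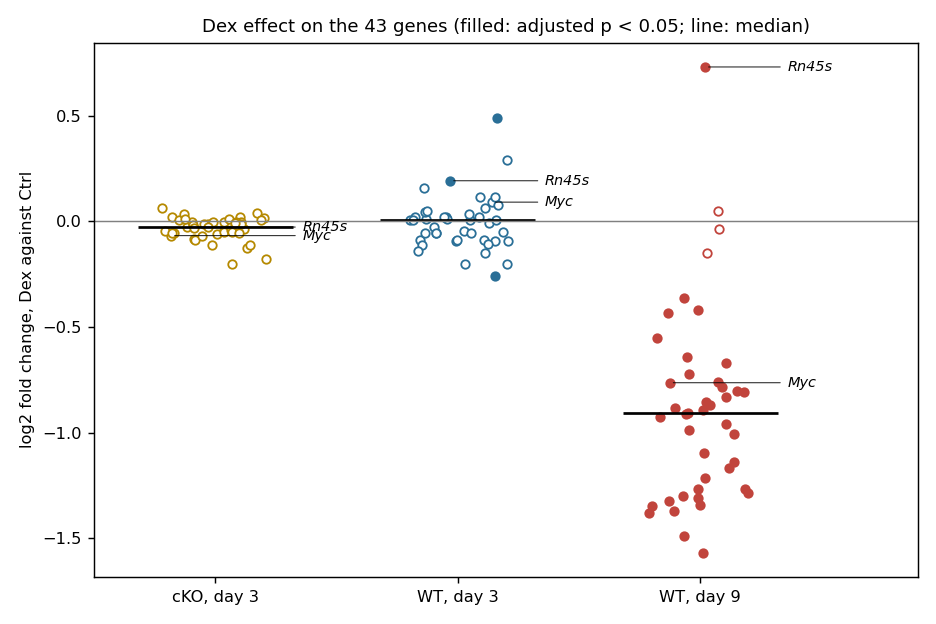
Log2 fold change of each of the 43 rows with Dex against Ctrl in cKO cells at day 3, WT cells at day 3 and WT cells at day 9. Filled points passed the test and the line is the median. Points lie around 0 at day 3 and around the median of -0.91 at day 9, where Rn45s is the single filled point above 0.

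Levels in the untreated groups differed by day as well. In WT Ctrl, 39 of the 43 rows had a higher mean at day 9 than at day 3, and for 34 of them all day 9 libraries lay above all day 3 libraries. All 3 Dex+IL27 libraries of day 9 lay below all 12 libraries of day 3 for 37 rows, and 39 rows had their lowest group mean in Dex+IL27. Such counts were not made over all genes, so they cannot be read as particular to the list. Culture history and the leading letter of the sample titles run with the day, which cannot be told apart from them, and day alone was not tested.

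Lists of neighbouring pathways were read in the same fits. Of the 85 other ribosome biogenesis genes tested, 74 fell and 3 rose with Dex+IL27, 72 fell and 3 rose with Dex, and 70 fell and 2 rose with IL27, each against Ctrl. Among all genes 32.6%, 27.4% and 28.1% fell in these comparisons. Noc4l, a small subunit factor, averaged 59.3 ± 2.19 CPM with Dex+IL27, 82.0 ± 5.65 CPM with Dex and 80.7 ± 11.0 CPM with IL27, against 197 ± 0.586 CPM in Ctrl (SD, n = 3 each). Cirh1a and Wdr46, both of the small subunit processome, fell by 1.30 and 1.48 on the log2 scale with Dex+IL27, and the nucleolar protein Lyar fell by 1.58 with Dex. The genes that rose were led by Taf1d, a subunit of the polymerase I selectivity factor, with 138 ± 11.2 CPM with Dex+IL27, 108 ± 3.59 CPM with Dex and 86.5 ± 2.35 CPM with IL27, against 60.0 ± 2.23 CPM in Ctrl. Nsa2, a large subunit factor, also rose in all 3 comparisons, by 0.59, 0.49 and 0.33. The interaction was positive and passed for 52 of these 85 genes and for 13.7% of all genes. At day 3 in WT cells 5 of the 85 fell with Dex and none rose, a share near the 4.5% of all genes that fell. They include Nmd3 (-0.21 ± 0.05), Nol11 (-0.19 ± 0.05) and Mak16 (-0.18 ± 0.05).

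The network of Myc partners and antagonists did not move one way. Of 13 genes tested, 8 rose and 2 fell with Dex+IL27, 5 rose and 3 fell with Dex, and 6 rose and 3 fell with IL27. Taken in both directions, these shares lie near those of all genes, of which 66.9%, 55.6% and 57.4% passed in the same order. By direction, more of the 13 rose than the 34.2%, 28.2% and 29.3% of all genes that did. Fewer fell than the 32.6%, 27.4% and 28.1% of all genes. These gaps rest on few genes and were not tested. Mxd1, a repressor that competes with Myc for Max, averaged 131 ± 26.7 CPM with Dex+IL27, 74.8 ± 13.5 CPM with Dex and 44.7 ± 12.6 CPM with IL27, against 13.7 ± 0.748 CPM in Ctrl (SD, n = 3 each). Its changes of 3.24 ± 0.20, 2.41 ± 0.20 and 1.66 ± 0.20 passed, with edgeR adjusted p of 3.21e-09, 1.46e-07 and 4.62e-06. Mnt, another Max-binding repressor, rose by 1.27 ± 0.14, 0.78 ± 0.14 and 0.79 ± 0.14, and Mlxip, a glucose-responsive partner of Mlx, rose by 1.35 ± 0.10, 0.74 ± 0.10 and 0.55 ± 0.10. Mlx itself fell by 0.64, 0.60 and 0.56. Max averaged 19.5 ± 3.37 CPM with Dex+IL27, 19.4 ± 1.81 CPM with Dex and 15.9 ± 0.232 CPM with IL27, against 23.4 ± 3.07 CPM in Ctrl, and of these the IL27 change of -0.60 ± 0.13 passed. Mycn fell with Dex (-0.52 ± 0.13), and Mxd3 fell with IL27 (-0.69 ± 0.21) and with Dex+IL27 (-0.68 ± 0.21). None of the 11 genes tested at day 3 passed with Dex in WT cells.

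Of 16 further Myc targets, 14 fell with Dex+IL27, 14 with Dex and 15 with IL27, and none rose, beside the 32.6%, 27.4% and 28.1% of all genes that fell. Ran, a small GTPase of nuclear transport, averaged 495 ± 16.7 CPM with Dex+IL27, 774 ± 71.5 CPM with Dex and 785 ± 112 CPM with IL27, against 1668 ± 29.2 CPM in Ctrl. The mitochondrial prohibitin Phb fell by 1.42, 0.92 and 0.88, and the cell cycle kinase Cdk4 fell by 0.91 with IL27. At day 3 with Dex in WT cells Apex1 rose (0.26 ± 0.07) and the chaperonin Hspd1 fell (-0.21 ± 0.05). Of 10 other polyamine genes tested, 3 rose and 6 fell with Dex+IL27, 2 rose and 6 fell with Dex, and 3 rose and 6 fell with IL27, beside the same 66.9%, 55.6% and 57.4% of all genes that passed. Sat1, which starts polyamine breakdown, rose by 0.67 ± 0.06, 0.43 ± 0.06 and 0.39 ± 0.06 at day 9, and it fell with Dex at day 3 in WT cells (-0.29 ± 0.08). Dohh, which hydroxylates the translation factor eIF5A, fell by 1.07, 1.12 and 0.87.

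Promoters were searched for the E-box that Myc and Max bind, CACGTG, which reads the same on both strands. RefSeq windows on GRCm38.p6 from 250 bases before to 50 after the start were matched for 36 of the 43 rows, and 8 of these (22.2%) held the motif, while 2187 of 27025 genes (8.09%) in the same table did. The stretches are printed with the motif in capitals and up to 20 bases on each side, to show the letters around the sites in genes that fell.
Rrn3 (chr16:13780464-13780509, plus strand): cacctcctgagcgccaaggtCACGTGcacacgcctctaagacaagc
Rrn3 (chr16:13780631-13780676, plus strand): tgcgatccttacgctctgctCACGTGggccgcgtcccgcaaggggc
Utp20 (chr10:88826765-88826797, minus strand): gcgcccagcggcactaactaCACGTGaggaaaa
Tsr1 (chr11:74898084-74898129, plus strand): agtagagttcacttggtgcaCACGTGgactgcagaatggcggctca
Wdr43 (chr17:71616212-71616257, plus strand): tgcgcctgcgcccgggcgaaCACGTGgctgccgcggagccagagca
Imp4 (chr1:34439688-34439733, plus strand): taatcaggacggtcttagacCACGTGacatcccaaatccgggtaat
Nop2 (chr6:125131803-125131848, plus strand): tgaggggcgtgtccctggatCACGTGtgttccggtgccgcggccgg
Pes1 (chr11:3963957-3964002, plus strand): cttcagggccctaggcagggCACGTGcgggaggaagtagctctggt
Mybbp1a (chr11:72441347-72441376, plus strand): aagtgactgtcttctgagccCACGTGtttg
Of these genes, Imp4 has its motif 121 bases before the start, Nop2 at 60, and Rrn3 at 215 and 48 bases before it. In Mybbp1a, Utp20, Tsr1, Wdr43 and Pes1 the motif begins 40, 37, 24, 17 and 2 bases after the start. All 8 fell with Dex+IL27, with Dex and with IL27 at day 9, as did most matched genes without the motif. A match describes letters and says nothing of binding.

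For comparison, 2 whole windows are printed: Imp4, among the largest falls, and Polr1c, which passed in none of the 3 comparisons with day 9 Ctrl and whose window does not hold these letters. Of the other largest falls against Ctrl, Mybbp1a holds the motif, while the windows of Nolc1, Nop56, Rrp9 and Dkc1 do not. The pair is thus no measure of a link between motif and change, which was not tested.
Imp4 (chr1:34439579-34439878, plus strand): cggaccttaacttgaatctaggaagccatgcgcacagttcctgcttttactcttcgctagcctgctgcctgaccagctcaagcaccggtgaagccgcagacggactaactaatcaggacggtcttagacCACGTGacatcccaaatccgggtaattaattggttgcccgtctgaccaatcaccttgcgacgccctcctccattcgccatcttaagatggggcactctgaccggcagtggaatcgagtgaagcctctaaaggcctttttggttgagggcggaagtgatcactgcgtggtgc
Polr1c (chr17:46247996-46248295, minus strand): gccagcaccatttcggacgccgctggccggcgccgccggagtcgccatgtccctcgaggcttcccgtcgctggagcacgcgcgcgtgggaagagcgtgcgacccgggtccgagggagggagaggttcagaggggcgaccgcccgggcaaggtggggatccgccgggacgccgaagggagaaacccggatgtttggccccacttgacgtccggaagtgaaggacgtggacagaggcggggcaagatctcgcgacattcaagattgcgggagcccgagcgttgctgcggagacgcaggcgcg

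Strand and neighbouring transcripts bear on some values. In the GENCODE annotation of GRCm38, 18 of the 43 rows have exons that overlap a gene on the opposite strand, by up to 616 bases for Tsr1 with Srr, 361 bases for Bysl with Ccnd3 and 209 bases for Imp4 with an antisense transcript. The library kit does not mark strand, so reads from such partners cannot be told apart within the overlap, and the annotation behind the counts may differ. Exons of Ncl, Nop56, Nop58 and Gnl3 overlap annotated snoRNAs on their own strand.

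Of the other cell types, the CD4 T cell list had the highest sums at day 9. Its 4 markers summed to 13.5 to 15.2 CPM with Dex+IL27, 13.6 to 16.3 CPM with Dex and 19.2 to 22.3 CPM with IL27, against 12.5 to 21.6 CPM in Ctrl, and none was at 0 in a whole group. Zbtb7b, a CD4 lineage factor, rose by 0.93, 1.04 and 1.38 on the log2 scale in that order, and Cd40lg, the ligand of CD40, fell, with changes of -4.39, -3.30 and -3.70. Cd4 rose with IL27 (2.58 ± 0.68), while its changes of 1.63 ± 0.71 with Dex+IL27 and -0.46 ± 0.85 with Dex did not pass, and Foxp3 was too low to test. The 6 myeloid and dendritic markers summed to 0.629 to 1.12 CPM with Dex+IL27, 0.383 to 1.08 CPM with Dex and 0.658 to 1.30 CPM with IL27, against 1.47 to 2.29 CPM in Ctrl, with Lyz2 at 0 with Dex+IL27 and with Dex. The 2 NK cell markers reached at most 0.789 CPM. The 5 B cell markers summed to 6.38 to 7.57 CPM with Dex+IL27, 9.85 to 12.3 CPM with Dex and 7.52 to 12.6 CPM with IL27, against 8.74 to 10.1 CPM in Ctrl, with Ms4a1 and Pax5 at 0 in all 4 groups. The 5 CD8 T cell markers summed to 1428 to 1764 CPM with Dex+IL27, 1505 to 1723 CPM with Dex and 1273 to 1648 CPM with IL27, against 1184 to 1368 CPM in Ctrl. The part of these differences in the results was not tested.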

How the data were processed

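Each of the 24 libraries held RNA of 1000 sorted CD8+ T cells from culture. Per the labels' protocols, cDNA was made with an adapted SMART-Seq2 method (11 PCR cycles), tagged with Nextera XT and sequenced from both ends for 38 nt. The authors deposited RSEM estimated counts without normalization and FPKM values scaled by TMM, going by the names of the deposited tables. Per the submitters' processing notes, TopHat, RSEM, DESeq and mm9 were used; versions and roles are not given in the sources used here. Reads carry no molecular identifiers and are not independent molecules.

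Rounded counts were tested with edgeR 4.0.16 in R 4.3.3 by the quasi-likelihood F-test, with TMM scaling, filterByExpr by group (minimum count 10, minimum total 15), a prior count of 0.125, and Benjamini-Hochberg adjustment over all genes. Calls have an adjusted p under 0.05. Libraries of 1 day (12) were fitted together with a mean per group. The day 9 minus day 3 contrast came from a joint fit. Genes tested numbered 11967 (day 3), 12320 (day 9) and 12666 (joint). SE is the log2 fold change over the square root of F. CPM used TMM factors of all libraries, and FPKM served to compare genes.

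The members, lists, comparisons and alternatives were chosen with earlier results of these data known. The naming rule took Myc and Rn45s in every library, the genes with the largest and smallest Dex change at day 9 in each role, the 4 largest called changes per direction and comparison (all where 8 or fewer were called), and up to 3 called genes per further list and direction with the lowest p, some of which are left out here. Ncl, Max and the genes of the E-box stretches were picked after their values were seen.

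Alternatives were DESeq2 size factors, library totals, Rn45s left out, no low-count filter, the DESeq2 1.42.0 Wald test, limma 3.58.1 on log2 of FPKM plus 1 or 0.1 (genes with a group mean of at least 1 FPKM, or unfiltered), a fit of the compared groups alone, a fit of all libraries, a replicate block, and leaving out single libraries. The fits were run on simulated data with known changes in few genes and the same spread for every gene. That checks the code and does not vouch for the calls in these data. Same-numbered libraries of a day did not deviate together (correlations of -0.117 to 0.169, over 0.1 in 1 of 24 pairs), and the numbers were not taken as pairs. Replicates differed by more than counting noise (chi-square per degree of freedom at least 4.33). Promoter windows are RefSeq's on GRCm38.p6, and no coordinates of the files' build are given. Python 3.11.15 and matplotlib 3.10.9 drew the figures.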

Additional observations from a re-analysis of the deposited data

Results flagged for a closer look

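Effects of Dex that differed between day 3 and day 9 in WT cells, by the test of the difference itself in 1 edgeR fit of all 24 libraries, are given for a closer look. Of the 43 rows, 41 passed that test. The difference on the log2 scale, day 9 effect minus day 3 effect, was -0.82 for Myc, -1.55 for Nolc1, -1.55 for Srm, -1.49 for Imp4 and -1.39 for Polr1b. It was 0.57 for Rn45s and 0.17 for Npm1. Day runs with culture history and with the leading letter of the sample titles, and their part in these differences was not tested. With 3 libraries per group no gap test for a single library was applied, while leaving out each library in turn was.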

How the results depend on the processing

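At day 9, and for the day 9 minus day 3 contrast, every count of rows called stayed within 1.5 times its value under each alternative, and no row changed direction while called. Calls held in every alternative for 39 of 40 rows with Dex, 39 of 39 with IL27, 40 of 41 with Dex+IL27 against Ctrl, 20 of 30 against Dex, 18 of 27 against IL27, 21 of 27 in the interaction and 37 of 41 in the day contrast. Day 3 counts were less stable. For WT Dex against WT Ctrl the count of 3 was 5 with library totals, 5 with no low-count filter, 1 with unfiltered limma, 1 with all 24 libraries in 1 fit and 0 to 2 with a library left out. For the genotype by Dex difference the count of 0 was 3 with no low-count filter, 0 to 1 with a library left out and 1 with the replicate block. For cKO Ctrl against WT Ctrl the count of 2 was 7 with library totals, 1 with Rn45s left out, 12 with no low-count filter, 7 with DESeq2, 1 with limma at either pseudocount, 0 with unfiltered limma, 1 with all 24 libraries and 0 to 3 with a library left out. For cKO Dex against WT Dex the count of 4 was 7 with no low-count filter, 2 with limma at either pseudocount, 2 with unfiltered limma, 1 with all 24 libraries and 1 to 15 with a library left out. Calls over all genes changed in these fits as well, and the cause was not tested. Leaving a library out gave 39 to 40 rows for Dex, 39 to 40 for IL27, 40 to 41 for Dex+IL27 against Ctrl, 23 to 30 against Dex, 19 to 36 against IL27, 22 to 31 in the interaction and 39 to 41 in the day contrast. The replicate block, whose numbers the data do not support as pairs, moved no other count by over 1.5 times, and genotype groups share no numbers. Scaling by library totals moved the median of all genes for Dex+IL27 against Ctrl to -0.07, against 0.05 with TMM. Relative to all other rows the Rn45s ratio to Ctrl was 1.91 with Dex+IL27, 1.70 with Dex and 1.64 with IL27. Of the further genes of other lists covered by the naming rule, 6 of 6 day 3 calls were lost somewhere, and at day 9 calls held for 18 of 20 with Dex+IL27, 17 of 20 with Dex and 19 of 20 with IL27. What depth adds to the error was not tested.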
